A study of Mus with 7 samples.

Results

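Tnf, Tnfsf9, Tnfrsf1a, Tnfrsf1b, Cd40 and Adam17 code for the cytokine TNF, a second ligand of its family, 3 receptors of the family and the protease that releases TNF from the cell surface. They were taken by symbol, 6 of the 31053 genes counted, and all 6 had UMIs in each of the 7 libraries. A UMI (unique molecular identifier) marks 1 captured mRNA molecule, so the values concern mRNA and not secreted or surface protein. The cells were fetal liver-derived macrophages (FLMs), which renew themselves in culture with GM-CSF, from wild-type C57BL/6J mouse fetuses. Con cells were collected before treatment, in medium with 10% fetal bovine serum (FBS). For the other libraries FBS was lowered to 0.25% for 24 h, with 8.3 µM bovine serum albumin as the vehicle (Veh) or with 25 µM docosahexaenoic acid (DHA), an omega-3 fatty acid, on the same amount of albumin. Veh.LPS.0 and DHA.LPS.0 were collected then. Veh.LPS.1, DHA.LPS.1, Veh.LPS.4 and DHA.LPS.4 were collected 1 or 4 h after 20 ng/mL lipopolysaccharide (LPS), the bacterial ligand of TLR4, was given in medium that replaced the DHA or vehicle medium. Comparisons of these libraries with Veh.LPS.0 or DHA.LPS.0 therefore also hold that change of medium, which cannot be told apart from LPS. Each condition had 1 library and nothing says how many cultures it pooled, so differences have no replicate check, no test could be run, and every 95% interval given covers counting error only.

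TNF is made as a membrane-bound trimer, and the metalloprotease ADAM17 cuts it to a soluble form. It signals through TNFR1 (Tnfrsf1a), found on most cell types, and TNFR2 (Tnfrsf1b), whose expression is more restricted and inducible. In macrophages, LPS acts through TLR4 and NF-κB to induce Tnf within the first hour, and the mRNA is short-lived because proteins such as tristetraprolin (Zfp36) bind it and target it for decay.

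Cells were kept with more than 20000 UMIs, at least 2000 genes and under 20% mitochondrial UMIs. This left 11640 of 31151 barcodes, from 692 cells in DHA.LPS.4 to 3073 in Veh.LPS.1, with a median of 29369 to 56239 UMIs per cell and 22045775 to 125716982 UMIs per library. Barcodes with at least 20% mitochondrial UMIs were 29.0% of all in Con, 35.8% to 54.7% in the Veh libraries and 74.4% to 80.0% in the DHA libraries. The 9 macrophage markers summed to between 5817 and 7089 CPM (UMIs per 1000000 UMIs of the library), and no kept cell had 3 or more markers of hepatocytes, stroma, the erythroid or lymphoid lineages, dendritic cells, mast cells or neutrophils. The defining mast cell genes were at 0 throughout. No cell type that should lack Tnf was therefore present, and the shares below have no such comparison for free RNA.

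On GRCm38.p6, the build called mm10, Tnf (ENSMUSG00000024401) lies on chromosome 17 from 35199367 to 35202007, between the related ligand genes Ltb (35194507 to 35196305) and Lta (35203165 to 35205578). Tnfsf9 (ENSMUSG00000035678), the 4-1BB ligand that costimulates T cells, lies on the same chromosome from 57105287 to 57107758 and overlaps the gene Gm11110. Tnfrsf1a (ENSMUSG00000030341) is on chromosome 6 from 125349723 to 125362483, and Tnfrsf1b (ENSMUSG00000028599) on chromosome 4 from 145212368 to 145246870. Cd40 (ENSMUSG00000017652), the receptor through which T cells activate macrophages and B cells, is on chromosome 2 from 165055614 to 165071654. Adam17 (ENSMUSG00000052593) is on chromosome 12 from 21323509 to 21373632 and overlaps Iah1 and Gm22766. How reads in these overlaps were assigned was not given in the sources used here, so the values of Tnfsf9 and Adam17 are uncertain to that extent.

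The level of each gene was its summed UMIs in the kept cells, as CPM. Tnf had 79.1 CPM in Con, 152 CPM in Veh.LPS.0 and 143 CPM in DHA.LPS.0. One hour after LPS it had 3799 CPM in Veh and 3482 CPM in DHA, and at 4 h it had 2287 and 1864 CPM. The 4 LPS libraries were thus all far above the other 3, and no 2 neighbours in the order of the 7 levels had a ratio whose interval held 1. Those intervals leave out the spread among cells, and without its most Tnf-rich cell DHA.LPS.0 had 136 CPM. Tnfsf9 had 63.4 CPM in Con, 130 CPM in Veh.LPS.0 and 134 CPM in DHA.LPS.0. One hour of LPS gave 344 CPM in Veh and 375 CPM in DHA, and 4 h gave 170 CPM and 164 CPM, so it too was highest at 1 h. In these kept cells DHA and Veh were not distinguishable at counting error for Tnfsf9 at 0 h and at 4 h.

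The receptors followed other courses. Tnfrsf1a stayed between 28.0 and 35.4 CPM, with 35.4 CPM in Con, 34.6 (Veh) and 35.1 (DHA) before LPS, 28.4 (Veh) and 28.0 (DHA) at 1 h and 31.7 (Veh) and 31.0 (DHA) at 4 h. Its highest level was 1.26 times its lowest, the narrowest range of the 6 genes. Tnfrsf1b had 4.65 CPM in Con, 3.68 CPM in Veh.LPS.0, 4.51 CPM in DHA.LPS.0. At 1 h Veh had 4.79 CPM and DHA 10.1 CPM, and at 4 h Veh had 106 CPM and DHA 119 CPM, so both 4 h libraries were far above the other 5. Cd40 had 1.04 CPM in Con, 3.70 CPM in Veh.LPS.0 and 6.57 CPM in DHA.LPS.0, and at 1 h Veh had 5.27 CPM and DHA 6.13 CPM. At 4 h it had 31.9 CPM in Veh and 24.0 CPM in DHA, both above every other library. For the protease, Adam17, the levels were 98.5 CPM in Con, 146 (Veh) and 141 (DHA) before LPS, 174 (Veh) and 168 (DHA) at 1 h and 183 (Veh) and 175 (DHA) at 4 h.

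**Figure D1:**
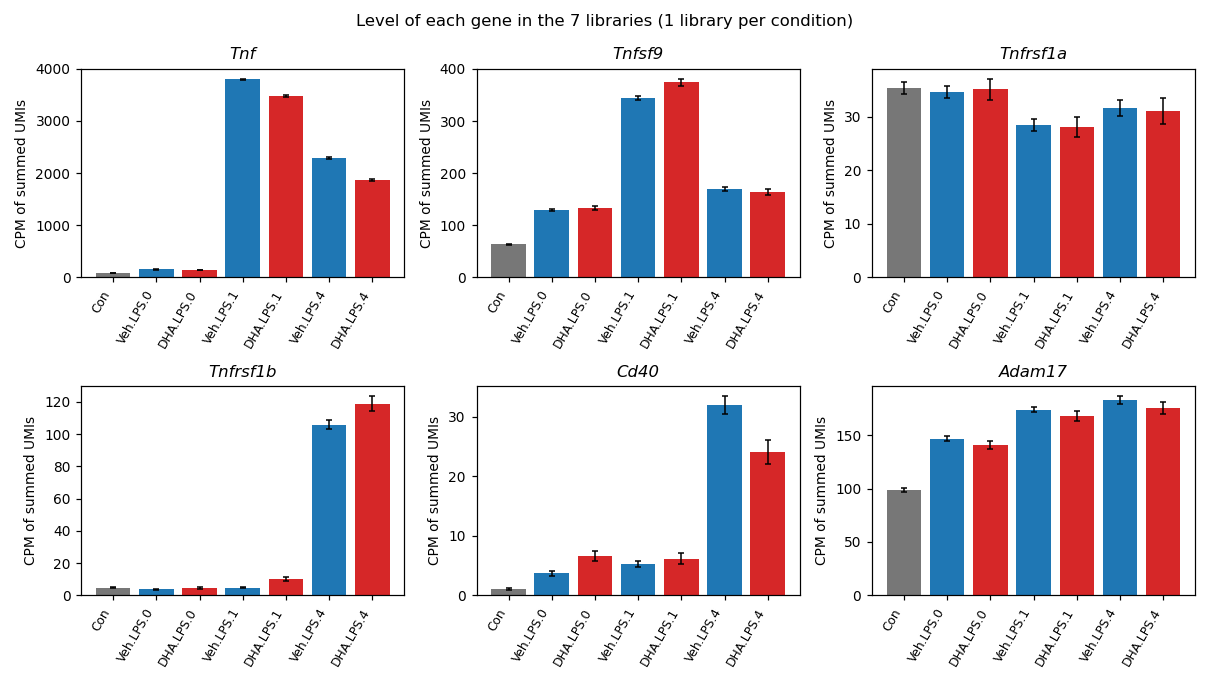
Bars give the level of each gene in CPM of summed UMIs (vertical axes, each from 0) in the 7 libraries, grey for Con, blue for Veh and red for DHA, with exact Poisson 95% intervals for counting error. Tnf and Tnfsf9 are highest at 1 h of LPS (Tnf 3799 CPM in Veh), Tnfrsf1b and Cd40 at 4 h, and Tnfrsf1a stays between 28.0 and 35.4 CPM.

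In the kept cells a Tnf UMI was found in 82.7% of cells of Con, 87.7% of Veh.LPS.0, 90.1% of DHA.LPS.0 and 99.9% to 100% of the LPS libraries. Such shares depend on depth, so each cell was also thinned to 20000 UMIs, which gave 66.3%, 77.8% and 77.4% for the 3 libraries without LPS. Adam17 and Tnfsf9 were found in most cells everywhere, with lowest shares of 95.6% and 84.2% before thinning. Tnfrsf1b was found in thinned cells at 6.93% (interval 5.96 to 8.0) in Veh.LPS.0 and at 75.8% (73.0 to 78.5) in Veh.LPS.4. The corresponding shares in DHA were 8.74% at 0 h, 16.7% at 1 h and 83.1% at 4 h. Cd40 was found in 1.72% of thinned cells of Con, 7.70% of Veh.LPS.0, 40.4% (37.3 to 43.5) of Veh.LPS.4 and 32.9% (29.5 to 36.6) of DHA.LPS.4. Before thinning, the last 2 shares were 64% and 43.1%, at median depths of 56239 and 29631 UMIs.

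The first comparison, Veh.LPS.0 against Con, covers the change to low serum and albumin for 24 h. A gene was counted as past the limit where its CPM differed by more than 1.5-fold and the gene had a UMI in 25% or more of the cells of either of the libraries. Tnf was 1.92-fold (interval 1.88 to 1.97) and Tnfsf9 2.05-fold (1.99 to 2.11) higher in Veh.LPS.0, and these were the 2 genes past the limit of the 4 that reached the share of cells, where 9.31% of the 8252 genes so compared were past it as higher and 7.76% as lower. Adam17 lay just inside the limit at 1.49-fold (1.45 to 1.52), and its ratio was past it with all deposited barcodes (1.61-fold, 1.57 to 1.64) and in barcodes with at least 20% mitochondrial UMIs (1.72-fold, 1.63 to 1.81). Tnfrsf1a had a ratio of 0.978 (0.935 to 1.02). Cd40 was 3.55-fold higher (2.90 to 4.36), but on 131 UMIs in Con and 365 in Veh.LPS.0, and it did not reach the share of cells in either. A single Con cell held 34 of those 131 Cd40 UMIs, with at most 4 in any other, and without it Cd40 had 0.772 CPM in Con. Tnfrsf1b, also below the share of cells, had a ratio of 0.791 (0.692 to 0.904).

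After 1 h of LPS, Tnf was 24.9-fold higher in Veh.LPS.1 than in Veh.LPS.0 (interval 24.5 to 25.4), a ratio above that of 99.8% of the 8089 genes compared. Tnfsf9 was 2.65-fold higher (2.60 to 2.70). These were the 2 genes past the limit of the 4 that reached the share of cells, where 4.15% of all genes were past it as higher and 4.24% as lower. Tnfrsf1a was lower, at 0.822 of its level (0.781 to 0.865), and Adam17 1.19-fold higher (1.16 to 1.21), neither past the limit. In either direction, 8.39% of genes were past it. The sparse receptors had ratios of 1.30 (1.13 to 1.5) for Tnfrsf1b and 1.43 (1.24 to 1.64) for Cd40. In DHA cells the same hour gave ratios of 24.3 (23.6 to 25.0) for Tnf, 2.80 (2.71 to 2.90) for Tnfsf9 and 2.24 (1.85 to 2.73) for Tnfrsf1b, 3 genes past the limit of the 5 compared, where 4.66% of genes were higher and 4.97% lower (9.63% in all). Tnfrsf1b reached the share of cells only in DHA.LPS.1 (25.5%, against 19.2% in DHA.LPS.0). In thinned DHA.LPS.1 cells its share was 16.7%, below the 25% asked. Cd40 was at 0.933 (0.767 to 1.13) in that comparison and Tnfrsf1a at 0.798 (0.731 to 0.870).

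At 4 h the inducible receptors Tnfrsf1b and Cd40 were well above their level without LPS, as Tnf still was. Against Veh.LPS.0, Tnfrsf1b was 28.8-fold higher in Veh.LPS.4 (interval 25.9 to 32.1), Tnf 15.0-fold (14.8 to 15.3) and Cd40 8.63-fold (7.71 to 9.69). These 3 of 6 genes were past the limit, where 10.2% of the 8385 genes compared were past it as higher and 38.3% as lower (48.5% in all). Tnfrsf1b and Cd40 reached the share of cells only in Veh.LPS.4, where they were high (93.2% and 64.0%, against 13.4% and 12.6%). The median log2 ratio over the 8385 genes was -0.36, and with TMM factors, which set aside the most changed genes, it was 0.07. On that scale 1813 of the 8385 genes were past the limit as higher and 1769 as lower. The share of higher genes among those past it was 50.6% in place of 21.1%. Tnfsf9 (log2 ratio 0.39, with TMM 0.82) and Adam17 (0.32, with TMM 0.75) were past the limit as well. Tnfrsf1a changed sign with the scaling, with a log2 ratio of -0.13 by library total and 0.30 with TMM factors, so no direction is given for it. In DHA cells, Tnfrsf1b was 26.3-fold (22.4 to 31.1), Tnf 13-fold (12.6 to 13.4) and Cd40 3.65-fold (3.12 to 4.29) higher at 4 h than at 0 h, again 3 of 6 past the limit, where 9.64% of genes were higher and 33.6% lower (43.2% in all). Here Tnfrsf1b and Cd40 reached the share of cells only in DHA.LPS.4 (90.3% and 43.1%, against 19.2% and 21.8%). With TMM factors Tnfsf9 and Adam17 were past the limit there too, where 1551 of 8477 genes were higher and 1779 lower.

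From 1 h to 4 h in Veh, Tnf was at 0.602 of its 1 h level (interval 0.598 to 0.606) and Tnfsf9 at 0.493 (0.482 to 0.505), while Tnfrsf1b was 22.1-fold (20.1 to 24.4) and Cd40 6.06-fold (5.49 to 6.70) higher. That made 2 higher and 2 lower of 6, where 7.98% of genes were higher and 29.3% lower. In this comparison too, Tnfrsf1b and Cd40 reached the share of cells only in Veh.LPS.4. With TMM factors the log2 ratio of Tnf was -0.39, within the limit, against -0.73 by library total, and that of Tnfsf9 was -0.68. In DHA, Tnf was at 0.535 (0.529 to 0.542), Tnfsf9 at 0.438 (0.422 to 0.455), Tnfrsf1b 11.7-fold higher (10.5 to 13.2) and Cd40 3.92-fold higher (3.32 to 4.64), where 6.97% of genes were higher and 23.3% lower (30.3% in all). All 4 were past the limit with TMM factors too, where 887 of 7847 genes were higher and 1234 lower. Cd40 reached the share of cells only in DHA.LPS.4. By library total, both treatments showed the 2 ligands lower and the 2 inducible receptors higher between these hours. Many other genes fell as far as the ligands. In Veh 22.6% of the genes compared had a ratio below that of Tnf and 14.1% below that of Tnfsf9, and in DHA 12.1% and 6.65%.

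**Figure D2:**
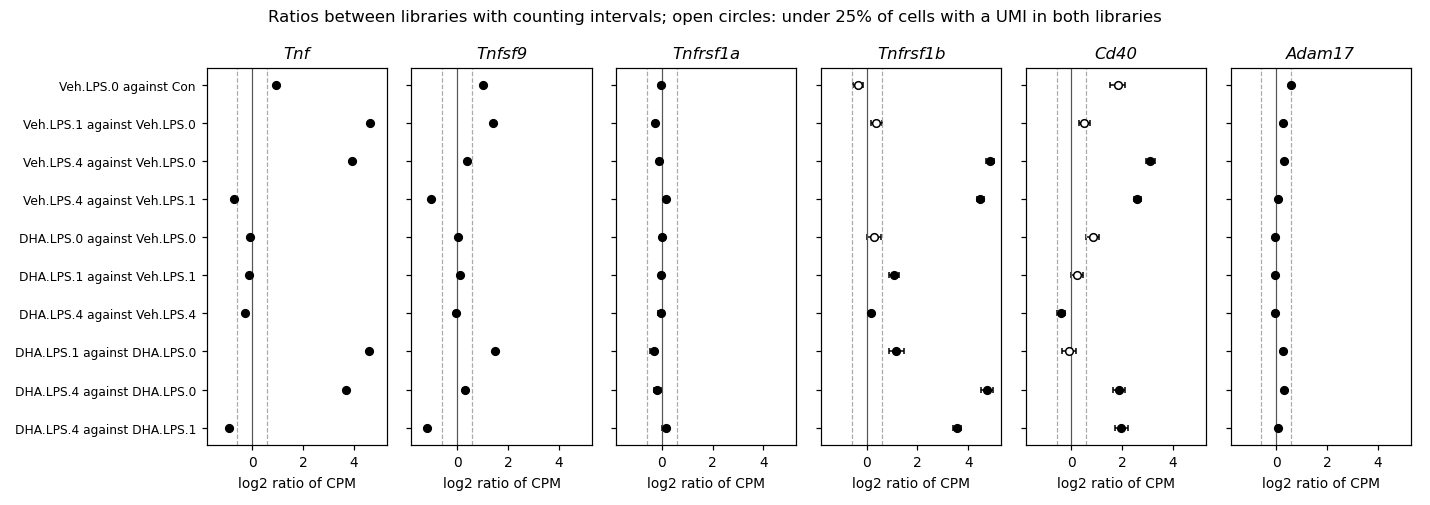
Points give the log2 ratio of CPM (horizontal axis) of each gene in 10 comparisons of libraries (rows) with exact binomial 95% intervals, open where a UMI was found in under 25% of the cells of both libraries, and dashed lines mark 1.5-fold. The DHA against Veh rows lie near 0 apart from Tnfrsf1b at 1 h (2.11-fold) and Cd40 (log2 0.83 at 0 h and -0.41 at 4 h).

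The question of the study was whether DHA changes the response to LPS, which is the comparison of DHA with Veh at each hour. For Tnf the ratio of DHA to Veh was 0.940 (interval 0.910 to 0.971) at 0 h, 0.917 (0.910 to 0.923) at 1 h and 0.815 (0.806 to 0.824) at 4 h. None of these was past the limit. The ratio at 4 h was above that of only 6.62% of the 7672 genes compared, and with TMM factors the log2 ratio was -0.42 in place of -0.29. In DHA.LPS.0, 1 cell held 248 of the 5014 Tnf UMIs, with at most 90 in any other, and without it Tnf had 136 CPM.

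The sign of the Tnf difference depended on which barcodes were counted. With all deposited barcodes, Tnf at 1 h had 5280 CPM in DHA against 4151 CPM in Veh, and at 4 h 2486 CPM against 2448 CPM, so DHA was the higher at both hours. In the barcodes with at least 20% mitochondrial UMIs, which the filter removed, Tnf had 7341 CPM in DHA.LPS.1 and 7344 CPM in Veh.LPS.1, a ratio of 1.000 (interval 0.992 to 1.01), and 2955 and 2954 CPM at 4 h, a ratio of 1.000 (0.990 to 1.01). Those barcodes carried about as much Tnf in DHA as in Veh at both hours and more than the kept cells in each library. They made up 74.4% of the barcodes of DHA.LPS.1 and 35.8% of those of Veh.LPS.1, and 80.0% and 54.7% at 4 h. Their part in the difference between DHA and Veh was not tested.

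**Figure D3:**
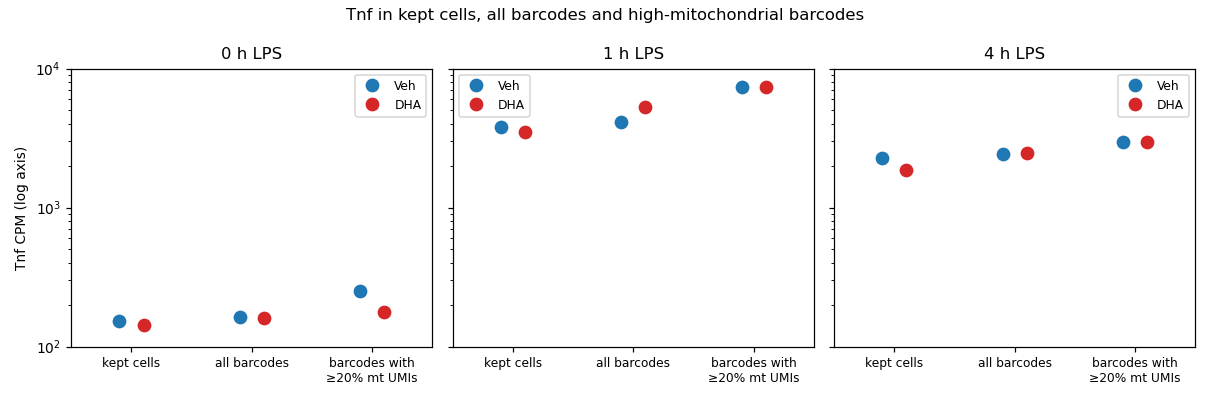
Points give Tnf in CPM (log axis) at 0, 1 and 4 h of LPS for Veh (blue) and DHA (red), in the kept cells, in all deposited barcodes and in barcodes with at least 20% mitochondrial UMIs. In the kept cells at 1 h Veh is above DHA (3799 and 3482 CPM), with all barcodes DHA is above Veh (5280 and 4151 CPM), and in the high-mitochondrial barcodes they coincide (7344 and 7341 CPM).

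Among the other genes, Tnfsf9 had DHA to Veh ratios of 1.03 (interval 0.996 to 1.07) at 0 h, 1.09 (1.07 to 1.11) at 1 h and 0.966 (0.930 to 1.00) at 4 h. With all barcodes it was higher with DHA at each hour, by 1.21-fold (1.18 to 1.24), 1.48-fold (1.46 to 1.5) and 1.32-fold (1.29 to 1.35), and in the high-mitochondrial barcodes the ratio was 0.802, 1.05 and 1.11. Adam17 was at 0.962, 0.967 and 0.960, and Tnfrsf1a at 1.02, 0.986 and 0.980, with intervals for Tnfrsf1a that held 1 at each hour in the kept cells. With all barcodes Tnfrsf1a was at 0.941 (0.892 to 0.991), 1.03 (0.971 to 1.09) and 0.907 (0.851 to 0.967), and in the high-mitochondrial barcodes at 0.782 (0.703 to 0.872), 0.985 and 0.880. The Adam17 intervals in the kept cells were 0.931 to 0.994, 0.937 to 0.997 and 0.925 to 0.996. With all barcodes Adam17 was higher with DHA at each hour, by 1.31-fold, 1.36-fold and 1.32-fold. In the high-mitochondrial barcodes it was at 0.922 (0.890 to 0.954), 1.06 (1.03 to 1.10) and 1.12 (1.09 to 1.16). At 1 h of LPS, Tnfrsf1b was 2.11-fold higher with DHA than with Veh (1.83 to 2.44), on 322 and 453 UMIs. It was the only 1 of 5 genes past the limit, where 1.33% of the 7794 genes compared were higher and 1.73% lower. A Tnfrsf1b UMI was found in 25.5% of DHA.LPS.1 cells, just over the required 25%, and in 12.5% of Veh.LPS.1 cells. In thinned cells the shares were 16.7% (14.2 to 19.5) and 8.56% (7.59 to 9.60), so the limit on the share was not met, and the ratio was 2.39 (2.14 to 2.67) with all barcodes and 2.06 (1.63 to 2.64) in the high-mitochondrial barcodes. At 4 h Tnfrsf1b was 1.12-fold higher with DHA (1.07 to 1.17), and at 0 h 1.23-fold (1.01 to 1.48). With TMM factors its log2 ratio at 4 h was 0.04 in place of 0.17. With all barcodes its ratio was 1.38 (1.34 to 1.42) at 4 h and 1.38 (1.21 to 1.59) at 0 h. In the high-mitochondrial barcodes it was 1.31 (1.24 to 1.37) at 4 h and 0.894 (0.710 to 1.13) at 0 h. Cd40 was 1.78-fold higher with DHA at 0 h (1.5 to 2.1), in under 25% of cells of both libraries, at a ratio of 1.16 (0.981 to 1.38) at 1 h and at 0.752 (0.681 to 0.829) at 4 h. With all barcodes its ratio was 1.78 (1.56 to 2.03) at 0 h, 1.44 (1.28 to 1.62) at 1 h and 0.952 (0.898 to 1.01) at 4 h. In the high-mitochondrial barcodes it was 1.18 (0.919 to 1.54), 1.32 (1.04 to 1.69) and 0.839 (0.767 to 0.918). None of the 4 genes compared at 0 h and none of the 6 at 4 h was past the limit, where 1.08% of genes were higher and 0.949% lower at 0 h, and 2.22% were higher and 2.42% lower at 4 h.

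The spread of Tnf among cells differed between the hours. In thinned cells the median was 1 Tnf UMI in Con and 2 in Veh.LPS.0 and DHA.LPS.0. At 1 h of LPS the median was 76 in Veh and 69 in DHA, and the 5th and 95th percentiles were 18 and 129 (Veh) or 13 and 126 (DHA), so nearly every cell was far above the level without LPS. At 4 h the median was 27 in Veh and 24 in DHA, with percentiles of 6 and 148 (Veh) or 5 and 113 (DHA). The most Tnf-rich cell held 215 UMIs at 1 h and 504 at 4 h in Veh. Relative to the median, the cells were thus more widely spread at 4 h than at 1 h in both treatments. The coefficient of variation of Tnf across cells was 0.436 in Veh.LPS.1 and 1.20 in Veh.LPS.4, and 0.481 and 1.07 in DHA. The 10% of cells with most Tnf held 17.6% of its UMIs in Veh.LPS.1 and 38.8% in Veh.LPS.4. At least 64 Tnf UMIs were found in 65.6% (interval 63.9 to 67.3) of cells of Veh.LPS.1, 58.0% (54.5 to 61.4) of DHA.LPS.1, 19.4% (17 to 22) of Veh.LPS.4 and 14.9% (12.3 to 17.8) of DHA.LPS.4. At least 128 UMIs were found in 5.43%, 4.53%, 7.25% (5.72 to 9.04) and 3.76% (2.47 to 5.46) of cells of the same libraries. No cell of Con or Veh.LPS.0 held 64, which allows, at 3 counts, a share of up to 0.103% and 0.121%.

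**Figure D4:**
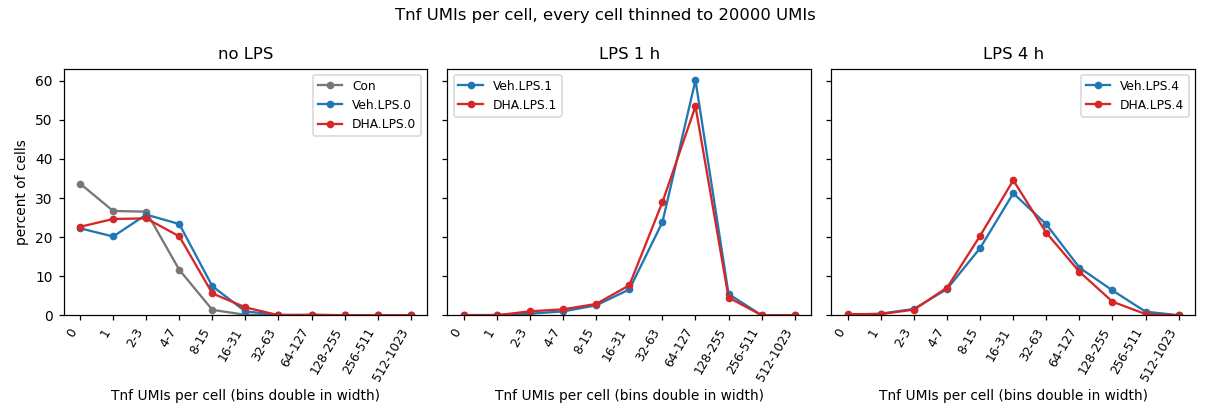
Lines give the percent of cells (vertical axis) in bins of Tnf UMIs per cell that double in width (horizontal axis), after every cell was thinned to 20000 UMIs, for Con (grey), Veh (blue) and DHA (red). At 1 h the cells gather at 64 to 127 UMIs (60.1% of Veh.LPS.1 and 53.5% of DHA.LPS.1), and at 4 h they spread over more bins, with the largest at 16 to 31 UMIs (31.2% of Veh.LPS.4 and 34.5% of DHA.LPS.4).

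Within each library, Spearman's correlation of Tnf across thinned cells was computed with every gene found in at least 50% of them, as a description of cells that share 1 library. At 4 h the highest values were for Cxcl2, a neutrophil chemokine (0.72 in Veh, 0.67 in DHA), and for Ccl4, Ccl3, Ier3 and Csf3 in both treatments. At 1 h Ier3, an NF-κB target and early response gene, came first (0.50 in Veh, 0.49 in DHA). Nfkbia, Ier2, Marcksl1 and Nfkbiz followed in Veh, and Nlrp3, Malt1, Marcksl1 and Ccl4 in DHA. Without LPS the highest values were lower, with 0.25 for Ier3 in Con, 0.36 for Nfkbia in Veh.LPS.0 and 0.30 for Ccl3 in DHA.LPS.0. The lowest were -0.33 for the desaturase Scd2 in Veh.LPS.4 and -0.28 for BC005537 in DHA.LPS.4. The correlation of Tnf with Tnfsf9 was 0.07 to 0.10 without LPS, 0.23 in Veh and 0.34 in DHA at 1 h, and 0.31 and 0.32 at 4 h. That of Tnf with the total UMIs of the cell before thinning was between -0.04 and 0.13 over the 7 libraries, and with the mitochondrial share between -0.09 and 0.08.

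Across the 7 libraries, the genes whose log2(CPM + 1) had the highest Pearson's r with each of the 6 were taken from the 8766 genes that reached 25% of cells in 1 library or more. For Tnf these were Gm20186, Nfkbia, which codes for the NF-κB inhibitor IκBα, and Traf1, each with r of 1.00. Nfkbia in Veh had 221 CPM before LPS, 1503 at 1 h and 1002 at 4 h. For Tnfsf9 they were Zcchc6, Ppp1r15a and Fnip1 (r of 0.98 each), for Tnfrsf1a Zkscan8, Ccdc84 and Gdpgp1 (0.99 to 1.00), for Tnfrsf1b Slc24a5, Actn1 and Nrp2 (1.00 each), for Cd40 Ercc6, Dlgap4 and Fam19a2 (0.99 each), and for Adam17 Padi2, Lilr4b and Litaf (0.98 to 0.99). These values are descriptions over 7 libraries, and each rests on the few libraries where the gene was high or low. Adam17 was low only in Con (98.5 CPM, against 141 to 183 CPM elsewhere), and Tnfrsf1a varied by only 1.26-fold. Among the 6 genes themselves, r was 0.90 between Tnfrsf1b and Cd40, 0.86 between Tnf and Tnfsf9, and -0.94 between Tnf and Tnfrsf1a, whose sign at 4 h depends on the scaling.

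The rest of the pathway was described with 7 gene lists. Of 17 ligands of the TNF superfamily, only Tnf, Tnfsf9 and Ltb reached 25% of cells in any library, and Cd40lg, Tnfsf8 and Tnfsf11 had no UMI in any. Ltb, a subunit of lymphotoxin, had in Veh 126 CPM before LPS, 102 at 1 h and 87.7 at 4 h, and in DHA 90.5, 81.3 and 124 CPM, where it was past the limit as higher from 1 h to 4 h (1.53-fold, 1.45 to 1.61). Lta, the neighbour of Tnf that codes for lymphotoxin alpha, had at most 2.82 CPM. Of 28 receptors, 12 reached 25% of cells in some library. Tnfrsf9, the receptor for the Tnfsf9 product, had 0.830 CPM in Veh before LPS and reached 2.36 CPM with Veh and 5.94 CPM with DHA after 4 h, in at most 14.9% of cells.

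At 1 h in Veh, 1 of 8 receptors compared was past the limit, where 4.15% of all genes were higher and 4.24% lower. This was Tnfrsf12a, the TWEAK receptor, at 1.75-fold (interval 1.63 to 1.88). The list had a median log2 ratio of -0.15 against -0.10 over all genes compared. At 4 h, 4 of 11 receptors were higher and 2 lower in Veh, where 10.2% of all genes compared were higher and 38.3% lower. Of the 4, Tnfrsf1b, Cd40 and Eda2r reached the share of cells only in Veh.LPS.4, the library where they were high. Of the 2 lower, Relt reached it only in Veh.LPS.0, where it was high. Beside Tnfrsf1b and Cd40, the death receptor gene Fas was 4.38-fold higher (4.08 to 4.69), going from 11.5 to 50.2 CPM, and Eda2r 1.78-fold, while Relt was at 0.266 (0.225 to 0.314) and Tnfrsf11a, the receptor RANK, at 0.420 (0.383 to 0.461). With TMM factors 5 were higher and 2 lower, where 1813 of 8385 genes were higher and 1769 lower. In low serum 3 of 8 receptors were higher than in Con, where 9.31% of all genes were higher and 7.76% lower. These were Fas at 2.03-fold (1.84 to 2.23), Tnfrsf26 at 1.66-fold and Tnfrsf23 at 1.52-fold (within the limit with TMM factors). Relt was lower, at 0.580. Without LPS none of 9 receptors differed past the limit between DHA and Veh, where 2.03% of all genes did. At 1 h Tnfrsf1b was the 1 of 8 past it, where 3.07% of all genes were. At 4 h Tnfrsf26 was the 1 of 10 past it, at 1.85-fold (1.67 to 2.06), where 4.64% of all genes were. With TMM factors Eda2r was past it too, as lower with DHA at 4 h (log2 ratio -0.67, by library total -0.54). There Eda2r reached the share of cells only in Veh.LPS.4, where it was high.

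The 8 genes of ectodomain shedding include Rhbdf2, which codes for iRhom2, the carrier that ADAM17 needs to mature. Rhbdf2 in Veh had 25.3 CPM before LPS, 27.7 at 1 h and 51.6 at 4 h, 2.04-fold (1.93 to 2.15) higher at 4 h, and in DHA it was 1.81-fold higher. Frmd8, which stabilises iRhoms, was at 0.470 (0.420 to 0.525) and Adam10, a related protease, at 0.589 (0.567 to 0.612), the latter within the limit with TMM factors. That made 1 of 4 higher and 2 lower at 4 h, beside 10.2% higher and 38.3% lower over all genes. None of 4 was past the limit at 1 h, beside 4.15% higher and 4.24% lower over all genes. Between DHA and Veh none was past it, beside 2.03% of all genes at 0 h, 3.07% at 1 h and 4.64% at 4 h. Timp3, whose product inhibits ADAM17, had no UMI in any library.

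Of the 17 genes of the TNFR1 and TNFR2 signalling complexes compared at 1 h, 3 were higher and none lower (4.15% and 4.24% of all genes). With TMM factors 4 were higher, where 406 of 8089 genes were higher and 256 lower. Tnfaip3, which codes for the ubiquitin-editing inhibitor A20, was 40.5-fold higher (interval 36.7 to 44.8), going from 4.10 to 166 CPM, Birc3 1.65-fold and Spata2 1.55-fold. Tnfaip3 reached the share of cells in Veh.LPS.1 and Veh.LPS.4, where it was high, but not in Veh.LPS.0. At 4 h Tnfaip3 was still 6.60-fold higher (5.92 to 7.38) and Traf2 1.51-fold, and 4 of 18 were lower, where 38.3% of all genes were, led by the deubiquitinase gene Cyld at 0.341 (0.316 to 0.368), Rbck1 at 0.426 and Tradd at 0.537, with Sharpin at 0.602. With TMM factors 6 were higher and 2 lower, where 1813 of 8385 genes were higher and 1769 lower. None of this list differed past the limit between DHA and Veh at any hour by library total. Over all genes, 2.03% did at 0 h, 3.07% at 1 h and 4.64% at 4 h. With TMM factors Birc2 was past it at 4 h, as lower (log2 ratio -0.63, by library total -0.51).

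Among the 6 CD40 adaptors and kinases, Traf1 was 15.5-fold higher at 1 h (14.9 to 16.1) and 11.5-fold at 4 h (11 to 12), Tank 2.33-fold and 1.96-fold, and Map3k8 1.82-fold at 1 h. Map3k14, which codes for the kinase NIK of the noncanonical NF-κB pathway, was lower, at 0.608 (0.547 to 0.675) at 1 h and 0.440 (0.382 to 0.505) at 4 h. These made 3 of 5 higher and 1 lower at 1 h (4.15% and 4.24% of all genes), and 2 of 6 higher and 1 lower at 4 h (10.2% and 38.3% of all genes). Under TMM factors 4 were higher and 1 lower at 4 h, where 1813 of 8385 genes were higher and 1769 lower. At both hours Map3k14 reached the share of cells only in Veh.LPS.0, where it was high. Among 7 genes of TNF-induced cell death, Cflar, whose product FLIP restrains death receptor signalling, was 6.13-fold higher at 1 h (5.94 to 6.33) and 2.98-fold at 4 h (2.87 to 3.09). It was the 1 of 7 higher at each hour. None was lower at 1 h, where 4.15% of all genes were higher and 4.24% lower. At 4 h the adaptor gene Fadd was among those lower, at 0.421 (0.361 to 0.491), where 10.2% of all genes were higher and 38.3% lower. Fadd reached the share of cells in Veh.LPS.0, where it was high, but not in Veh.LPS.4. Neither list had a gene past the limit between DHA and Veh, where 2.03% of all genes were at 0 h, 3.07% at 1 h and 4.64% at 4 h.

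Of 11 genes that act on decay or translation of Tnf mRNA, 3 were higher and 1 lower in Veh.LPS.1 than in Veh.LPS.0, where 4.15% and 4.24% of all genes were. Zfp36 was 13.2-fold higher (interval 12.8 to 13.6), going from 38.7 to 511 CPM, Zc3h12a, which codes for the RNase Regnase-1, 6.88-fold (6.45 to 7.35) and Rc3h1 1.56-fold. Tia1, a translational silencer, was at 0.508. At 4 h Zc3h12a was 10.1-fold (9.47 to 10.8), Zfp36 3.07-fold (2.95 to 3.20) and Rc3h1 2.74-fold (2.61 to 2.87) higher, and Zfp36l1, Zfp36l2 and Tia1 were lower, at 0.249, 0.454 and 0.495, where 10.2% of all genes were higher and 38.3% lower. With TMM factors 4 were higher and 2 lower, where 1813 of 8385 genes were higher and 1769 lower. Tia1 was then within the limit (log2 ratio -0.58). Zfp36l1 reached the share of cells in Veh.LPS.0, where it was high, but not in Veh.LPS.4. Zfp36 at 4 h had 119 CPM in Veh and 70.6 CPM in DHA, a DHA to Veh ratio of 0.594 (0.562 to 0.627). Zfp36l2 at the same hour had 38.1 and 59.9 CPM, a ratio of 1.57 (1.47 to 1.69), which was within the limit with TMM factors. These were the 2 genes of 10 past the limit between DHA and Veh at 4 h, where 4.64% of all genes were. None of the list was past it at 0 or 1 h, where 2.03% and 3.07% of all genes were. Within DHA, Tnfaip3 was 37.8-fold, Traf1 15.7-fold, Zfp36 11-fold and Cflar 5.65-fold higher at 1 h than without LPS. Tnfaip3 reached the share of cells in DHA.LPS.1, where it was high, but not in DHA.LPS.0. In low serum against Con, Zfp36 was 1.61-fold, Birc3 2.0-fold and Traf1 1.70-fold higher, and Adam10 was at 0.626.

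**Figure D5:**
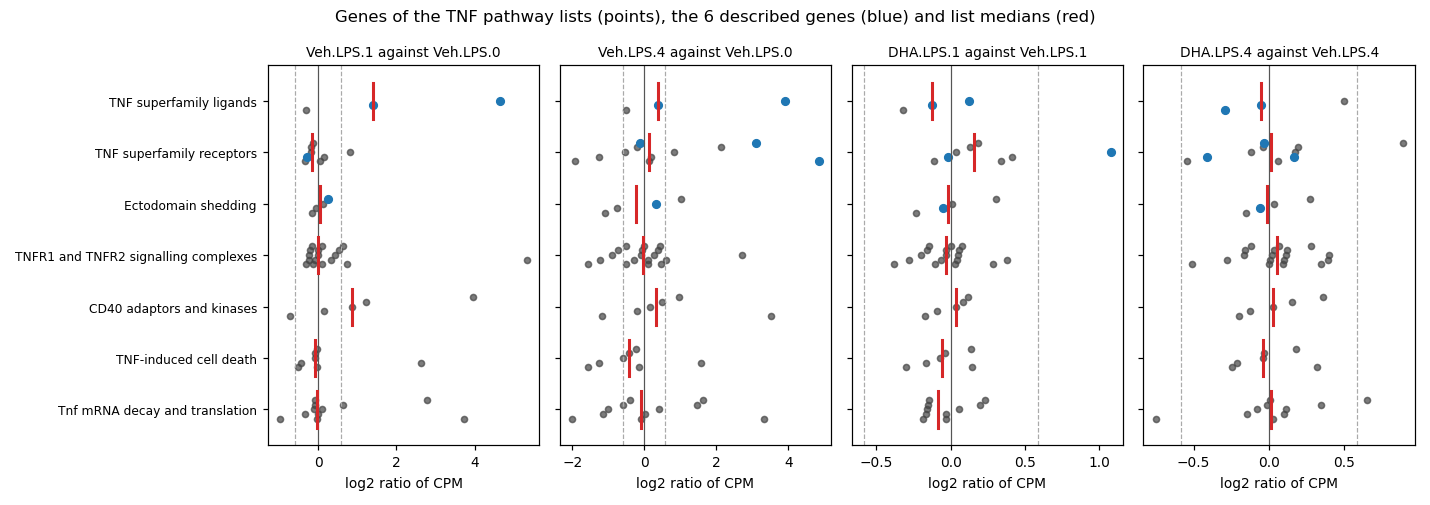
Grey points give the log2 ratio of CPM (horizontal axes, which differ in range) of each gene compared in 7 lists (rows), blue points those of the 6 genes described, and red bars the median of each list, with dashed lines at 1.5-fold. With LPS single genes lie far to the right (Tnfaip3 40.5-fold, Tnf 24.9-fold at 1 h). Most list medians stay near 0 by library total. On that scale the median over all genes compared was -0.36 at 4 h in Veh. With TMM factors it was 0.07 there, and the list medians ran from 0.01 to 0.82. Between DHA and Veh few genes pass the lines.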

How the data were processed

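Single FLMs were profiled in 7 libraries with a droplet kit that counts the ends of mRNAs. The authors deposited whole-number UMI counts per gene and barcode, made with Cell Ranger, not normalized and before their filter on cells. The file headers and the submitters' processing notes name version 3.1.0, and the notes name mm10. The methods of the study name another version. Gene positions came from RefSeq's GRCm38.p6 annotation.

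Here, cells with more than 20000 UMIs, at least 2000 genes and under 20% mitochondrial UMIs were kept, as in the study. For each library the UMIs of a gene were added up and divided by the library's total to give CPM. Ratios of CPM have exact binomial (Clopper-Pearson) 95% intervals, CPM exact Poisson ones and shares exact binomial ones. Shares with a count of 0 have an upper limit of 3 counts. With 1 library per condition nothing was tested, and members and lists were described by size against the same limits over all genes. Shares and spread were also taken after thinning each cell to 20000 UMIs (seed 1). Samples were grouped by their treatment labels, and the 10 comparisons were low serum, LPS within each treatment and DHA against Veh. Alternatives were TMM factors (edgeR 4.0.16), DESeq2 1.42.0 size factors, both in R 4.3.3, and other filters on cells and genes. Other steps used Python 3.11.15, numpy 2.4.6, scipy 1.17.1 and pandas 2.3.3. Of these, only the calls past the limit and the intervals of ratios were tested on simulated data. No doublet caller was run. Leaving out the 5% deepest cells was an alternative. Of the kept cells, 0 to 4 barcodes were shared between any 2 libraries, 16 in all.

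The 6 genes, the lists and the limits were chosen with earlier results of these data known. Genes named from a list were, per comparison, up to 3 with the highest and 3 with the lowest ratio among those past the limit. The other list genes named were picked after their values were seen. One result of a gene list is not reported here.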

Additional observations from a re-analysis of the deposited data

Results flagged for a closer look

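Cd40 differed between DHA and Veh in opposite directions at 2 hours. Its log2 ratio of DHA to Veh was 0.83 at 0 h of LPS, on 230 and 365 UMIs, and -0.41 at 4 h, on 529 and 1870 UMIs. The interval of neither ratio held 1 in the kept cells. With all barcodes the ratio was 1.78 (1.56 to 2.03) at 0 h and 0.952 (0.898 to 1.01) at 4 h. In barcodes with at least 20% mitochondrial UMIs it was 1.18 (0.919 to 1.54) at 0 h and 0.839 (0.767 to 0.918) at 4 h. The difference between the hours was not tested, since there was 1 library per condition. At 0 h a Cd40 UMI was found in 21.8% of DHA cells and 12.6% of Veh cells, which is below the share asked of a compared gene.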

How the results depend on the processing

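Of 100 counts of genes past the limit under the alternatives, 89 stayed within 1.5 times the reported count, and no ratio past the limit changed direction. The number past the limit in Veh.LPS.4 against Veh.LPS.0 was 5 in place of 3 with TMM factors and 5 with DESeq2 size factors, and between DHA.LPS.4 and DHA.LPS.0 likewise 5 and 5 in place of 3, each time by adding Tnfsf9 and Adam17. Between DHA.LPS.1 and Veh.LPS.1 it was 0 in place of 1 with a share of at least 50% of cells, with all barcodes, with more than 10000 UMIs per cell, with thinned cells, without the 5% deepest cells and in only the barcodes with at least 20% mitochondrial UMIs, an alternative added after seeing the data, because Tnfrsf1b then missed the share of cells. Between DHA.LPS.0 and Veh.LPS.0 it was 1 (Cd40) with no limit on the share, and between Veh.LPS.0 and Con it was 1 (Tnfsf9) with a 2-fold limit. Of 480 log2 ratios under alternatives, 36 had another sign than the reported one, among them Tnf between DHA and Veh with all barcodes (0.35 at 1 h, 0.02 at 4 h). The cause was not tested. No paired analysis was possible because each condition had 1 library. Few UMIs limit the sparse receptors, with 131 for Cd40 in Con and 158 for Tnfrsf1b in DHA.LPS.0.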

Other observations

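Barcodes with at least 20% mitochondrial UMIs, which entered none of the main comparisons, also differed in Tnf with LPS. In them Tnf had 252 CPM in Veh.LPS.0 and 7344 CPM in Veh.LPS.1, a ratio of 29.2 (interval 28.2 to 30.2), and 2954 CPM in Veh.LPS.4. Adam17 had 351, 356 and 322 CPM in those barcodes at 0, 1 and 4 h in Veh, and Tnfsf9 had 298, 768 and 308 CPM. Tnfrsf1b went from 8.42 CPM before LPS to 142 CPM after 4 h. Without LPS, Tnf in these barcodes had 179 CPM in DHA.LPS.0, a DHA to Veh ratio of 0.711 (0.681 to 0.743), against 0.940 in the kept cells.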
